A study of Homo sapiens with 6 samples.

Results

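The 4 genes described here encode E-cadherin (CDH1), N-cadherin (CDH2), beta-catenin (CTNNB1) and p120-catenin (CTNND1), and were picked by symbol from the 770 genes of the nCounter PanCancer Progression Panel. The cells were NIH:OVCAR-3, a long-established line of human ovarian carcinoma, and there were 3 samples cultured at low density and 3 cultured at high density, each for 1 week. All 6 samples were of this same line in the same RPMI medium, which held insulin at 10 µg/ml, sodium pyruvate at 1 mM, HEPES at 10 mM, glucose at 4.5 g/L and fetal bovine serum at 20%, and 100 ng of total RNA was used per sample. A medium density named in the design was not analysed here. The labels number the samples of each density 1 to 3 but do not say whether each was a culture of its own. The p-values therefore speak of the spread between these samples alone, and that spread may be technical.

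Classical cadherins are calcium-dependent adhesion receptors that join neighboring cells at adherens junctions. E-cadherin is typical of epithelial cells, and N-cadherin of mesenchymal and neural cells. The cytoplasmic tail of either cadherin binds beta-catenin, which links it through alpha-catenin to actin, and p120-catenin, which binds nearer the membrane and holds the cadherin at the cell surface by slowing its endocytosis. Beta-catenin outside this complex is destroyed unless Wnt signaling protects it, in which case it acts in the nucleus as a coactivator of transcription. The ovarian surface epithelium is known for carrying N-cadherin, while E-cadherin is common in ovarian carcinomas. The comparison asked how the RNA of these junction components, and the proportions between them, differed between cells grown sparsely and cells grown densely.

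The assay counts 1 fluorescent barcode for each captured RNA molecule, and the values below are normalized counts, that is barcode counts multiplied by 1 factor per sample that brings the panel's 30 reference genes to the same geometric mean. Totals of the counts recovered from the values were 658423 to 696309 per sample at low density, against 554857 to 683340 at high density, and the brightest negative control probe of each sample had 9 to 17 counts. All 8 epithelial markers measured had a mean of at least 20, against 1 of 8 for fibroblasts (COL1A1), 1 of 4 for endothelial cells (KDR) and 1 of 3 for leukocytes (CXCR4). The 5 markers listed for serous ovarian tumors were not analysed here, so the tissue of origin was not checked.

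At low density, CDH1 RNA was lower, CTNNB1 RNA was higher, CTNND1 RNA was slightly lower and CDH2 RNA did not pass the test. The folds, low over high density, lay between 0.845 and 1.19. Of the 4 genes, 3 had an adjusted p under 0.05, 1 of them a rise and 2 of them falls, in limma's moderated test on log2(value + 1) with Benjamini-Hochberg adjustment over 480 tested genes. Among all 480 genes, 66.2% passed the same threshold, 38.8% as rises and 27.5% as falls, so the share of these genes that passed was near that of the panel as a whole.

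CDH1, the epithelial cadherin, had 1735, 1723 and 1707 normalized counts at low density, against 2047, 1993 and 2070 at high density. All 3 low density samples lay below all 3 high density samples. The mean was 1722 ± 14.1 at low density, against 2037 ± 39.2 at high density (SD, n = 3 each), and CDH1 fell by 15.5% (log2 fold change, low over high density, −0.24 ± 0.04 SE, 95% interval −0.32 to −0.16, limma adjusted p = 2.1e-08). When samples were instead scaled to the positive controls, the value was −0.095 and did not pass (adjusted p = 0.145). In the methods' t-test after Benjamini-Hochberg adjustment, CDH1 passed with an adjusted p of 0.0012. The summed level of the 8 epithelial markers, which do not include CDH1, moved the same way, with 18614 to 19405 normalized counts at low density, against 25970.5 to 26705 at high density. Their part in the result was not tested, and in these bulk samples fewer cells expressing a gene and less RNA per cell cannot be told apart. The fibroblast markers summed to 89.4 to 108 at low density, against 82.7 to 99.4 at high density, the endothelial markers to 59.8 to 75.2 at low and 72.2 to 92.6 at high density, and the leukocyte markers to 46.7 to 63.9 at low and 59.7 to 77.4 at high density.

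CDH2, the mesenchymal and neural cadherin, had 444, 464 and 474 normalized counts at low density, against 487, 463 and 468 at high density. The groups overlapped, since the highest low density sample was above 2 of the 3 high density samples. The mean was 461 ± 15.5 at low density, against 473 ± 12.9 at high density (SD, n = 3 each), with a log2 fold change of −0.04 ± 0.06 (SE) and a limma adjusted p of 0.648. The 95% interval, −0.16 to 0.09, still allows a small change in either direction. CDH2 was well measured, with 28.8 to 42.7 times as many counts as the brightest negative control probe of the same sample.

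CTNNB1, whose protein links cadherins to the actin-binding alpha-catenin and carries the Wnt signal, had 7271, 7204 and 7442 normalized counts at low density, against 5989, 6128 and 6260 at high density. All 3 low density samples lay above all 3 high density samples. The mean was 7306 ± 123 at low density, against 6126 ± 136 at high density (SD, n = 3 each), a rise of 19.3% (log2 fold change 0.25 ± 0.03 SE, 95% interval 0.19 to 0.32, limma adjusted p = 1.2e-12). The call held with quantile normalization at 0.11 and under the positive control scaling at 0.40. In the methods' t-test after Benjamini-Hochberg adjustment, CTNNB1 passed with an adjusted p of 0.0021. CTNNB1 was the only one of the 4 genes to pass the threshold as a rise.

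CTNND1, whose protein stabilizes cadherins at the membrane, had 1625, 1631 and 1753 normalized counts at low density, against 1750, 1864 and 1826 at high density. The groups met within 3 counts: the third low density sample (1752.8) was just above the first high density sample (1750.39). The mean was 1669.5 ± 72.2 at low density, against 1813 ± 57.7 at high density (SD, n = 3 each), and CTNND1 fell by 7.95% (log2 fold change −0.12 ± 0.04 SE, 95% interval −0.20 to −0.04, limma adjusted p = 0.00783). This call was lost without the first low density sample (adjusted p = 0.0693), without the second high density sample (0.0617), when no mean trend of the spread was fitted (0.0840) and in the methods' t-test after Benjamini-Hochberg adjustment (0.0886). Under the positive control scaling the value changed sign, to 0.027 (adjusted p = 0.701).

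**Figure D1:**
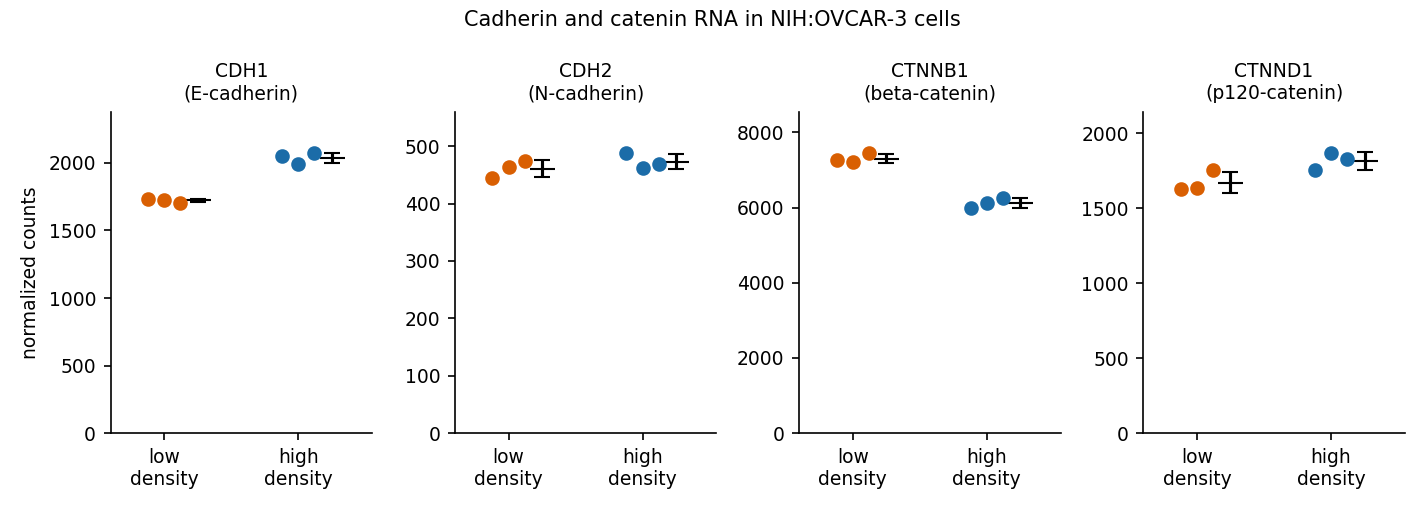
Normalized counts of CDH1, CDH2, CTNNB1 and CTNND1 (vertical axes, each from 0) in every sample, with low density in orange on the left and high density in blue on the right of each panel. Black bars are the mean and SD of 3 samples. The densities are separate for CDH1 and CTNNB1, in opposite directions, and overlap for CDH2 and, by 1 sample, for CTNND1.

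Replicates lay close together for both cadherins. The coefficient of variation between replicates was 0.821% at low and 1.92% at high density for CDH1, below the counting error of its barcodes (2.33% at low and 2.31% at high density). For CDH2 it was 3.37% at low and 2.73% at high density, also below the counting error (4.50% at low and 4.79% at high density). For the catenins it was above, with 1.69% at low and 2.21% at high density for CTNNB1, where counting error was 1.13% at low and 1.33% at high density, and with 4.32% at low and 3.18% at high density for CTNND1, where it was 2.37% at low and 2.45% at high density. Counting error is the spread expected from the number of barcodes alone, and an SD of 3 samples can fall below it. Of the 480 genes tested, 66.0% had groups that did not overlap, and 2 of the 4 genes described here, CDH1 and CTNNB1, were among them.

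The order of the levels was the same in every sample at its ends, with CTNNB1 highest and CDH2 lowest. CTNNB1 ranked 15 to 16 of the 770 genes at low density, against 16 to 19 at high density, and CDH2 ranked 230 to 239 at low and 216 to 225 at high density. CDH1 and CTNND1 lay between them. At low density the ranges of these neighbors overlapped (1707 to 1735 for CDH1 and 1625 to 1753 for CTNND1), while at high density each CDH1 value was above each CTNND1 value. A probe captures its own target with its own efficiency, so a difference in level between genes, and each ratio given below, is one of probe counts and not of molecules. The change between densities of a ratio of single genes does not depend on this, while that of a ratio of sums does through the weight of each probe, and neither depends on the single scaling factor of a sample.

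The ratio of E- to N-cadherin counts was lower at low density. CDH1 over CDH2 was 3.91, 3.71 and 3.60 at low density, against 4.20, 4.31 and 4.42 at high density, with no overlap between the groups. The mean was 3.74 ± 0.157 at low density, against 4.31 ± 0.110 at high density (SD, n = 3 each). The log2 difference was −0.21 with a 95% interval of −0.35 to −0.06 from the moderated standard errors. With quantile normalization, which applies no single factor per sample, it was −0.12. The exact two-sided permutation test over the 20 arrangements of the 6 samples gave p = 0.1, the smallest that 3 against 3 samples allow, and 0.117 after adjustment over the 7 ratios computed. E-cadherin counts stayed in excess of N-cadherin counts in all 6 samples.

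The ratio of cadherin to catenin counts was lower at low density as well. CDH1 and CDH2 together over CTNNB1 and CTNND1 together came to 0.245, 0.248 and 0.237 at low density, against 0.327, 0.307 and 0.314 at high density. These groups did not overlap, and the gap between them was wider than the range within either. The mean was 0.243 ± 0.00542 at low density, against 0.316 ± 0.0103 at high density (SD, n = 3 each). The log2 difference was −0.38 (95% interval −0.47 to −0.29, exact permutation p = 0.1, the smallest possible).

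Ratios of single genes differed in size. CDH1 over CTNNB1 was 0.239, 0.239 and 0.229 at low density, against 0.342, 0.325 and 0.331 at high density, and its log2 difference of −0.50 (95% interval −0.60 to −0.39) was the largest of the 7. CDH2 over CTNNB1 averaged 0.0631 ± 0.00179 at low density, against 0.0772 ± 0.00361 at high density, a log2 difference of −0.29 (−0.43 to −0.15), again without overlap. Singly, CDH2 changed by −0.04 and CTNNB1 by 0.25 on the log2 scale, so most of this difference lay in CTNNB1. The level of CDH2 itself did not pass the test. The 2 catenins moved apart: CTNNB1 over CTNND1 was 4.47, 4.42 and 4.25 at low density, against 3.42, 3.29 and 3.43 at high density, a log2 difference of 0.37 (0.27 to 0.48).

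Ratios of cadherins to p120-catenin moved least. CDH1 over CTNND1 averaged 1.03 ± 0.0514 at low density, against 1.12 ± 0.0506 at high density (SD, n = 3 each). The groups were separate only by 1.068 for the highest low density sample and 1.070 for the lowest high density sample. The log2 difference was −0.12, with an interval of −0.24 to −0.0074 that ended just short of 0. This interval combined the standard errors of both genes as if independent and did not use the spread of the ratio itself. That spread was 0.069 (pooled SD of the log2 ratio within groups), so whether the difference was other than 0 was not settled. Without the third low density sample the difference was −0.081. CDH2 over CTNND1 overlapped between the groups, with 0.276 ± 0.00754 at low density, against 0.261 ± 0.0156 at high density (log2 difference 0.08, 95% interval −0.07 to 0.23, exact permutation p = 0.3). Of the 7 ratios, 6 did not overlap between densities, each with the smallest p the design can give. These ratios share genes with one another, so the count is not one of separate pieces of evidence. Among the 480 tested genes taken singly, 66.0% had groups that did not overlap. The share among ratios of other panel genes was not computed.

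**Figure D2:**
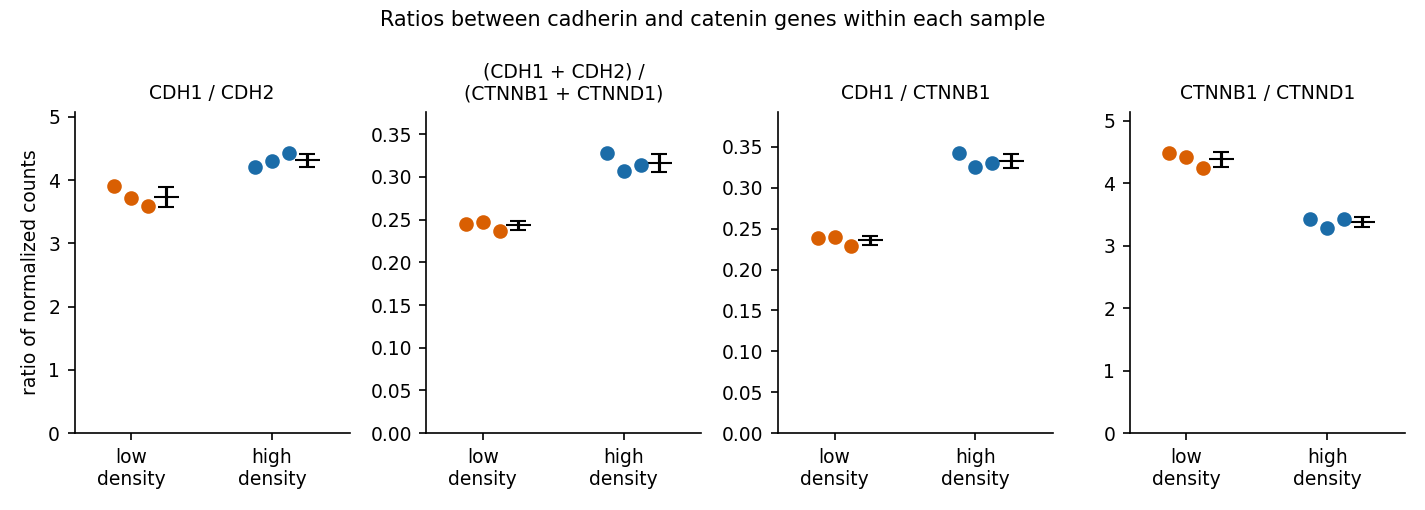
Ratios of normalized counts within each sample (vertical axes, each from 0) for CDH1 over CDH2, both cadherins over both catenins, CDH1 over CTNNB1 and CTNNB1 over CTNND1, with low density in orange on the left and high density in blue on the right. Black bars are the mean and SD of 3 samples. None of these 4 ratios overlaps between densities, and the first 3 are lower and the last is higher at low density.

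Expressed as a share of the summed counts of the 4 genes, CTNNB1 made up 65.5 ± 0.156% at low density, against 58.6 ± 0.316% at high density (SD, n = 3 each). CDH1 made up 15.4 ± 0.374% at low and 19.5 ± 0.423% at high density, CTNND1 15.0 ± 0.393% at low and 17.4 ± 0.426% at high density, and CDH2 4.13 ± 0.108% at low and 4.52 ± 0.188% at high density. The shares sum to the whole, so a higher share of CTNNB1 lowers the other 3 together.

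How far each single gene moved depended on how the samples were scaled. The deposited scaling rests on the reference genes. Scaling was then done on the positive control probes, which are synthetic RNAs added in equal amount. The median tested gene shifted by 0.15 on the log2 scale, and all 4 genes moved up by a similar step. CDH1 was then at −0.095 (limma adjusted p = 0.145), CDH2 at 0.11 (0.201), CTNNB1 at 0.40 (5.2e-13) and CTNND1 at 0.027 (0.701), so the falls of CDH1 and CTNND1 no longer passed and the values of CDH2 and CTNND1 changed sign. Under median-of-ratios scaling the values were −0.31 for CDH1, −0.10 for CDH2, 0.19 for CTNNB1 and −0.18 for CTNND1, and under quantile normalization −0.25, −0.13, 0.11 and −0.18 in the same order. CTNNB1 passed as a rise under all 4 scalings, with its largest adjusted p, 0.0393, under quantile normalization. CDH2 passed under none of them.

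**Figure D3:**
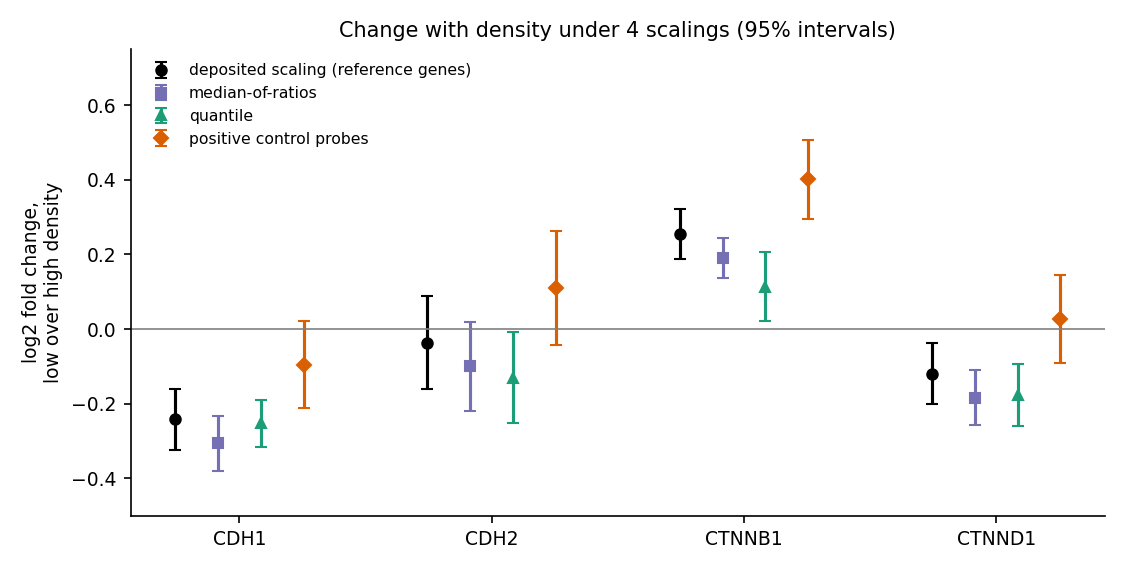
Log2 fold change of each gene, low over high density (vertical axis), under 4 scalings of the samples, shown by symbol and color, with 95% intervals from limma. CTNNB1 lies above 0 under each scaling, CDH1 lies below 0 with an interval that reaches 0 under the positive control scaling alone, and the 4 genes keep the same order under each scaling, with CDH1 lowest and CTNNB1 highest.

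Set against the panel, these changes were of ordinary size. The median absolute log2 fold change was 0.18 over the 4 genes and 0.27 over the 480 tested genes, and the signed medians were −0.08 and 0.04. Of the tested genes, 252 (52.5%) had a larger absolute change than CTNNB1, 265 (55.2%) than CDH1, 355 (74.0%) than CTNND1 and 433 (90.2%) than CDH2. The reference genes, which define the scaling, themselves ranged from −0.40 to 0.63, and 9 of the 30 changed by more than CTNNB1 and 10 by more than CDH1.

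**Figure D4:**
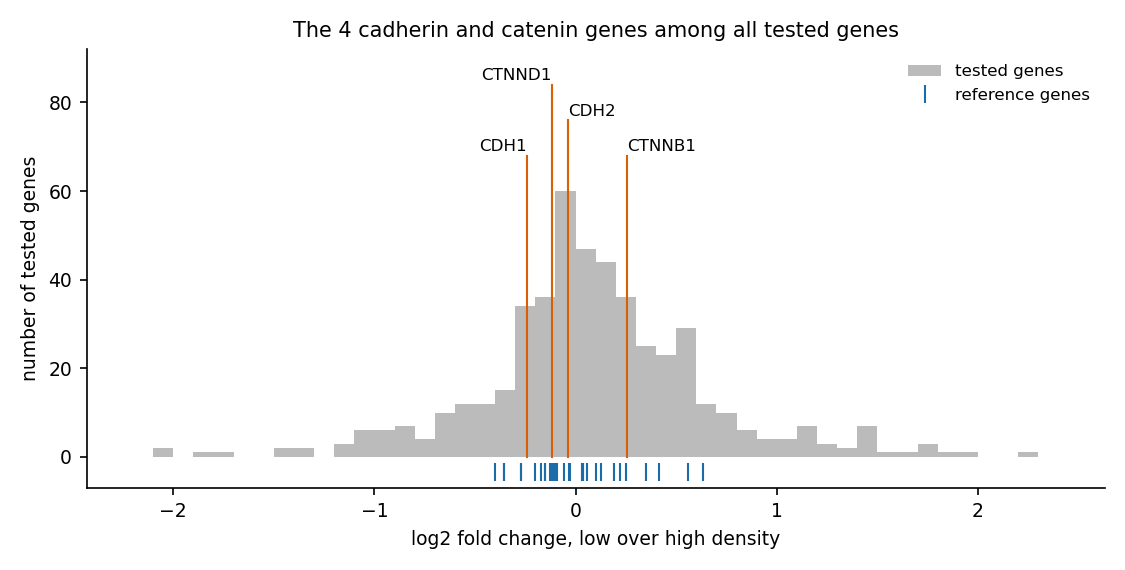
Number of tested genes (vertical axis, gray bars) by log2 fold change, low over high density (horizontal axis, bins of width 0.1), with orange lines at the values of CDH1, CTNND1, CDH2 and CTNNB1 and blue ticks at the 30 reference genes. All 4 genes lie within the range of the reference genes, −0.40 to 0.63.

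Partners of these genes are described under the deposited scaling. There, 38.8% of all tested genes rose, 27.5% fell and the median log2 fold change was 0.04. That background moved with the scaling. Under the positive control scaling, 240 of 479 tested genes rose and 74 fell (median 0.19). Under median-of-ratios scaling, 161 of 481 rose and 162 fell (−0.019). With quantile normalization, 143 of 479 rose and 147 fell (−0.020). Of 16 other cadherins listed, values were at hand for CDH11 and CDH13, and both were below the mean of 20 needed for testing. The 11 other catenins and plakophilins listed, alpha-catenin and plakoglobin among them, were not analysed here.

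The 24 genes listed as regulators of cadherin transcription included ESRP1, which encodes a splicing regulator and fell (log2 fold change −0.24). Of the 24 genes, 14 were on the panel and 8 were tested, with 2 rises, 3 falls and 3 not past the threshold. Their median log2 fold change was 0.03, against 0.04 over all tested genes, and there were 3 rises and 1 fall under the positive control scaling, 2 rises and 3 falls with median-of-ratios and 1 rise and 3 falls with quantile normalization. SNAI1, which encodes the E-cadherin repressor Snail, rose at a low level (74.8 ± 14.5 normalized counts at low density, against 49.5 ± 5.37 at high density, log2 fold change 0.57, limma adjusted p = 5.7e-04). OVOL2, an epithelial factor that represses ZEB1, rose too (960 ± 68.4 at low, against 697 ± 12.0 at high density, log2 change 0.46). The epithelial transcription factor ELF3 fell (1955 ± 63.7 at low, against 3450 ± 84.9 at high density, log2 change −0.82), as did TCF4 (230 ± 32.7 at low, against 289 ± 12.6 at high density, log2 change −0.34), which encodes a bHLH factor also named E2-2. TWIST1 did not pass (88.6 ± 14.9 at low and 83.1 ± 10.9 at high density, adjusted p = 0.608). SNAI2 and ZEB1, which encode further repressors of E-cadherin, were below the tested level, with 1.05 to 5.64 and 2.44 to 8.74 normalized counts over the 6 samples. Both repressors were therefore not detected above the negative control probes at this depth, while SNAI1 was. The call of SNAI1 was lost under quantile normalization (adjusted p = 0.0524) and in the methods' t-test (0.0664), and that of TCF4 under the positive control scaling (0.0591) and in the methods' t-test (0.0809).

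Among genes of cadherin cleavage and turnover, 8 were tested, with 5 rises, 1 fall and 2 not past the threshold (median 0.27). There were 6 rises under the positive control scaling (median 0.42), 4 with median-of-ratios (0.21) and 3 of 7 tested with quantile normalization (0.078). MET, the receptor of the scatter factor HGF, rose (140 ± 8.17 normalized counts at low density, against 67.1 ± 5.12 at high density, log2 fold change 1.05, limma adjusted p = 6.0e-15). The protease gene MMP2 averaged 30.0 at low density, against 10.4 at high density, the second value within the range of the brightest negative control probes, so no fold is given. ADAM17, a sheddase, fell by 0.12 on the log2 scale (949 ± 43.8 at low and 1029 ± 19.1 at high density, limma adjusted p = 0.0264), a call that 10 of 16 alternatives kept and that turned to 0.030 under the positive control scaling.

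On the Wnt side, WNT5A, a ligand known mainly for signaling that does not use beta-catenin, rose (881 ± 37.4 normalized counts at low density, against 608 ± 25.5 at high density, log2 fold change 0.54, limma adjusted p = 1.7e-20), as did the integrin-linked kinase gene ILK (438 ± 30.6 at low, against 372 ± 12.7 at high density, log2 change 0.23). ILK no longer passed under quantile normalization (adjusted p = 0.142). Of 6 tested genes known as beta-catenin targets, 1 rose, 3 fell and 2 did not pass (median −0.27), and with quantile normalization none of 5 tested rose and 4 fell. VEGFA, the angiogenic growth factor gene, fell (619 ± 45.2 at low, against 1228 ± 41.5 at high density, log2 change −0.99), as did the AP-1 subunit gene JUN (626 ± 19.4 at low, against 902 ± 34.1 at high density, log2 change −0.53). PLAUR, the urokinase receptor gene, was the one that rose, with means of 25.9 at low density, against 14.5 at high density, the second of them within the range of the brightest negative control probes. Beta-catenin protein was not measured.

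Membrane receptors known to associate with cadherins had 9 tested genes, with 3 rises, 3 falls and 3 not past the threshold (median −0.05). The 3 rises held in number under each scaling, while falls numbered 1 under the positive control scaling, 5 with median-of-ratios and 4 with quantile normalization. The fibroblast growth factor receptor genes FGFR3 (110 ± 17.1 normalized counts at low density, against 38.8 ± 3.90 at high density, log2 fold change 1.47) and FGFR4 (154 ± 5.46 at low, against 75.0 ± 8.23 at high density, log2 change 1.04) rose. PTPRM, a receptor phosphatase of cell contacts, fell (271 ± 27.8 at low, against 399 ± 29.9 at high density, log2 change −0.56), as did KDR, a VEGF receptor that associates with VE-cadherin in endothelial cells, at a low level (26.9 ± 7.10 at low, against 38.4 ± 2.18 at high density, log2 change −0.53). EPCAM, an epithelial adhesion gene outside the cadherin family, did not pass (3005 ± 105 at low, against 3101 ± 54.0 at high density, log2 change −0.05, limma adjusted p = 0.279), and its direction changed with the scaling, with −0.11 (0.0020) under median-of-ratios scaling, 0.10 (0.102) under the positive controls and 0.11 (5.3e-04) under quantile normalization. The call of KDR held under 10 of the 15 alternatives that tested it.

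Likeness of profiles was measured as the root mean square difference between log2 values, each gene centered on its own mean, over the 6 samples, and is given as a description. Closest to CDH1 were the ribosomal protein gene RPS27A (0.0271), TOM1L1 (0.0276) and the keratin gene KRT7 (0.0284). Closest to CDH2 were SMAD2 (0.0386), AKT2 (0.0413) and PRKCZ (0.0415), none of which passed the test of density. Closest to CTNNB1 were SMURF2 (0.0204), SORD (0.0306) and NPR1 (0.0321). Closest to CTNND1 were CDC42 (0.0324), PPP2CB (0.0367) and MYO5C (0.0385). Between the 4 genes themselves the difference was 0.0683 for CDH2 and CTNND1 and 0.0834 for CDH1 and CTNND1, and it was widest, 0.25, for CDH1 and CTNNB1, so none of the 4 was among the genes closest to another.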

How the data were processed

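RNA from low density and high density NIH:OVCAR-3 cultures (3 samples each) was counted with the nCounter PanCancer Progression Panel. The deposited values were a signal, namely barcode counts that the authors multiplied by 1 factor per sample so that the 30 reference genes had a geometric mean of 383.27 to 383.28. This was inferred from the values, and the scaling software is not given in the sources used here. Control probes were unscaled, and no background was subtracted. The step between low values gave the counts per sample, whole within 0.1 for 100% of values under 100 counts.

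Of 740 genes outside the reference set, the 480 with a mean of at least 20 were tested on log2(value + 1) with limma 3.58.1 in R 4.3.3 (lmFit, eBayes with mean trend, two-sided, Benjamini-Hochberg over the 480, threshold 0.05, no replicate block). This fit shares the spread over genes, with 457 prior degrees of freedom. Ratios of values were taken within samples and tested by exact permutation. Their intervals and their Benjamini-Hochberg adjustment used scipy 1.17.1. The fit was tested on simulated data. Alternatives were other scalings, filters, pseudocounts, background subtraction, no trend, the methods' t-test, a replicate block and leaving out each sample.

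The genes and lists were chosen with earlier results of these data known. Named were the 4 genes, from each list at most 2 passing genes with the largest change in each direction, EPCAM, SNAI1, SNAI2, ZEB1 and TWIST1, and the 3 genes with the profile most like each of the 4. COL1A1, CXCR4, CDH11, CDH13 and ESRP1 were named after their values were seen. All 4 symbols matched RefSeq names. Some genes and lists that this rule covers are not reported here.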

Additional observations from a re-analysis of the deposited data

How the results depend on the processing

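Scaling to the positive control probes gave CDH1 −0.095, CDH2 0.11 and CTNND1 0.027 on the log2 scale, low over high density, so CDH1 no longer passed and CDH2 and CTNND1 changed sign. It moved rises to 240 of 314 called genes (76.4%), against 186 of 318 (58.5%) as deposited, 161 of 323 (49.8%) under median-of-ratios scaling and 143 of 290 (49.3%) under quantile normalization. CTNND1 kept its value of −0.12 but not its call without a mean trend and in the methods' t-test, and leaving out 1 sample at a time gave −0.16 to −0.10. Quantile normalization, which applies no single factor per sample, moved the log2 difference of CDH1 over CDH2 to −0.12, of both cadherins over both catenins to −0.28, of CDH1 over CTNNB1 to −0.37 and of CTNNB1 over CTNND1 to 0.29. Leaving out the third low density sample gave −0.081 for CDH1 over CTNND1, and leaving out the first or the second high density sample gave 0.13 or 0.048 for CDH2 over CTNND1. The cause of these moves was not tested. CTNNB1 passed as a rise under all 16 alternatives (0.11 to 0.40), CDH1 as a fall under 15 of 16, and CDH2 passed under none (smallest adjusted p 0.0611). The 16 alternatives called 264 to 332 genes. Among the partner genes named, ADAM17 reversed under the positive control scaling (0.030), EPCAM there (0.10) and under quantile normalization (0.11), and TWIST1 under quantile normalization (−0.18) and without the third high density sample (leaving out 1 sample gave −0.014 to 0.23).

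Deviations of samples with the same replicate number correlated at 0.117, −0.111 and −0.035 across genes, so the numbers did not pair the samples. With the replicate block, 320 genes passed, and CDH1 (adjusted p = 4.3e-07), CDH2 (0.636), CTNNB1 (1.3e-10) and CTNND1 (0.0171) kept their calls. Of the replicate numbers, only number 1 correlated best with its own number. The edgeR test on recovered counts was not run, because the step between values of the first high density sample lay too close to 1 for its counts to be checked. Depth limits CDH2 most, with 384 to 520 barcodes per sample.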
